A study of Mus musculus with 6 samples.

Results

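The genes described here are 6 of the neurotrophin system of the mouse: the ligands Bdnf (brain-derived neurotrophic factor) and Ntf3 (neurotrophin 3), the receptor tyrosine kinases Ntrk2 (TrkB) and Ntrk3 (TrkC), the p75 neurotrophin receptor Ngfr, and Sort1 (sortilin). They were chosen by name, and every probe set whose platform annotation lists one of these symbols was taken. That gave 24 of the 45037 probe sets of the array, 8 for Ntrk2, 8 for Ntrk3, 3 for Ngfr, 3 for Sort1 and 2 for Bdnf. None of the 24 listed a further gene. No probe set of the annotation used here listed Ntf3, so its level is not analysed here and 5 genes have values.

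RNA of olfactory epithelium, the sheet of sensory neurons, basal stem and progenitor cells, supporting cells and glands in the nasal cavity, was measured in mouse pups aged 1 day. There were 3 wildtype and 3 mutant samples, all of mixed strain (C57Black6/J and 129SvJ), with 1 expression array each and no treatment named. The titles number them as biological replicates, without saying if a sample is 1 pup or a pool of several. The title of the series asks for genes that the transcription factor KLF7 acts on in olfactory sensory neurons. The labels give the second group only as mutant, and its allele, and whether it is missing in all cells, are not given in the sources used here.

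Neurotrophins are secreted as precursors, pro-neurotrophins, that proteases such as furin cut to the mature form. Mature BDNF binds TrkB and mature neurotrophin 3 binds TrkC, and the activated kinase domains signal through adaptor proteins to the MAP kinase, PI3 kinase and phospholipase C gamma pathways that favour survival and growth of neurons. The p75 receptor binds all neurotrophins and, together with sortilin, the precursors, and it can also promote cell death. Ntrk2 and Ntrk3 each make full-length receptors and truncated ones without the kinase. The p75 receptor is widely used as a marker of Schwann cells and of olfactory ensheathing glia, and the ensheathing glia wrap the axons of olfactory neurons.

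Krüppel-like factors bind CACCC elements and GC boxes, so the RefSeq promoter windows of the genes (GRCm38.p6) were searched for CACCC and GGGCGG on both strands, and 3 windows are shown for how far they differ in these letters. Each holds the 250 bases before an annotated start, with the matches in capitals. The first is that of Ngfr (chr11:95587699-95587948, minus strand), the second that of Ntrk2 (chr13:58806319-58806568, plus strand), and the third is the Bdnf window with most matches of its 7 (chr2:109676782-109677031, plus strand).
Ngfr: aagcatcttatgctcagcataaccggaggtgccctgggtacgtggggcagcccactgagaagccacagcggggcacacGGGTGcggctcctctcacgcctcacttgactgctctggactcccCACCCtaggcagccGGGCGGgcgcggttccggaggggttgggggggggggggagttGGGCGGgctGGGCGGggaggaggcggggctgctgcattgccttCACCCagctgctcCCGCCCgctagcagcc
Ntrk2: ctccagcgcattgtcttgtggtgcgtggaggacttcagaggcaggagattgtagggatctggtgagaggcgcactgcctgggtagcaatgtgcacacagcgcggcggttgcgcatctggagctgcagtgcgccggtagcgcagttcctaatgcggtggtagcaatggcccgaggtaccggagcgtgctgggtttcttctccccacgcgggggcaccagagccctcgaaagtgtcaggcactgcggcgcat
Bdnf: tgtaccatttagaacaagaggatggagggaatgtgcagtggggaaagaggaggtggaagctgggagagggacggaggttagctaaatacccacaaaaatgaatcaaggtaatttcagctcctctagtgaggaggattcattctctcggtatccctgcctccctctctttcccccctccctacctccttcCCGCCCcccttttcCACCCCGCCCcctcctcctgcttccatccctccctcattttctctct

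The Ngfr window held 3 matches to CACCC and 4 to GGGCGG. That of Ntrk2 held 0 of either, and 1 match to GGGCGG when the 50 bases after the start were counted too. The Bdnf window shown held 1 match to CACCC and 2 to GGGCGG, with the last pair overlapping. Of the other 6 Bdnf windows, 4 held a match to CACCC and 1 of these also one to GGGCGG. Among all 32851 promoter windows of this length, 52% held CACCC and 32.7% held GGGCGG, so neither match is uncommon. Ntf3 had 2 windows, with 0 and 1 matches to CACCC and 1 match to GGGCGG in each. No window was given for Ntrk3 or Sort1. A match describes the letters of the window and not binding.

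All values below are log2 intensities after quantile normalization, in which every array is given the same distribution of values. Values under the 20th percentile of all values, a log2 intensity of 3.65, were raised to it, and a probe set counts as dim here when its mean lies in the lowest 40% of probe sets, under 4.93. Of the 24 probe sets, 14 lay above the dim level and 10 were dim, and 10 had at least 1 array at the floor. Levels of different probe sets are not compared with one another, because each binds its target with its own strength.

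The 4 probe sets of Klf7 were lower in all 3 mutant arrays than in any wildtype array, with log2 differences of -3.06 to -2.15 (limma, unadjusted p from 0.00019 to 0.0284, adjusted p = 1 over all probe sets). Markers of mature olfactory neurons were above the dim level on average for 8 of 8 genes, with 0 at the floor on any array. Of the 8, 7 were lower in the mutant mean, beside 52.4% of all genes at 1 probe set each. Their median log2 difference was -0.89 and 0 were called (limma). By limma's unadjusted p, 5 of the 8 were under 0.05, beside 0.707% of genes. Groups did not overlap for 5 of the 8, beside 2.98% of genes. The log2 of the summed intensity of the 8 markers ran from 12.49 to 12.86 in wildtype and from 11.69 to 11.99 in mutant arrays. In whole tissue, fewer neurons and less RNA per neuron cannot be told apart. The arrays also differed within each group: the first principal component, with 49.2% of the variance, placed wildtype array 3 at 149 and mutant array 3 at 96, and the other 4 arrays between -77.2 and -41.2. The log2 summed intensity of markers of squamous epithelium, which lines the skin and the front of the nose, ranged from 7.93 to 11.88 among wildtype and from 7.21 to 10.08 among mutant arrays.

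No member gene separated the genotypes by the test. Of 24 probe sets 0 passed limma's test adjusted over the 44073 probe sets tested, as did 0% of all those tested, and every adjusted value was 1. By limma's unadjusted p, 0 of the 24 were under 0.05, beside 288 of all probe sets tested (0.653%). Of the 24, 16 had a higher mutant mean and 8 a lower one, where 48.3% of all probe sets tested were higher. Of the 14 above the dim level 7 were higher and 7 lower, where 47.6% of all such probe sets were higher, so the larger count of higher ones came from dim probe sets. The count of higher ones among the 24 was 16 with array medians set equal, beside 49.4% of all probe sets, and 17 on the values as deposited, beside 55.5%. It was 12 without wildtype array 1, beside 48.7%. Groups did not overlap for 3 of the 24, or 12.5%, beside 2.76% of all probe sets tested (1.54% lower and 1.22% higher in the mutant). These 3 belong to only 2 genes, Bdnf and Ntrk2, and 2 of them are dim. The count was also 3 with array medians set equal, beside 2.09%, and 1, or 4.17%, on the values as deposited, beside 2.55%.

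**Figure D1:**
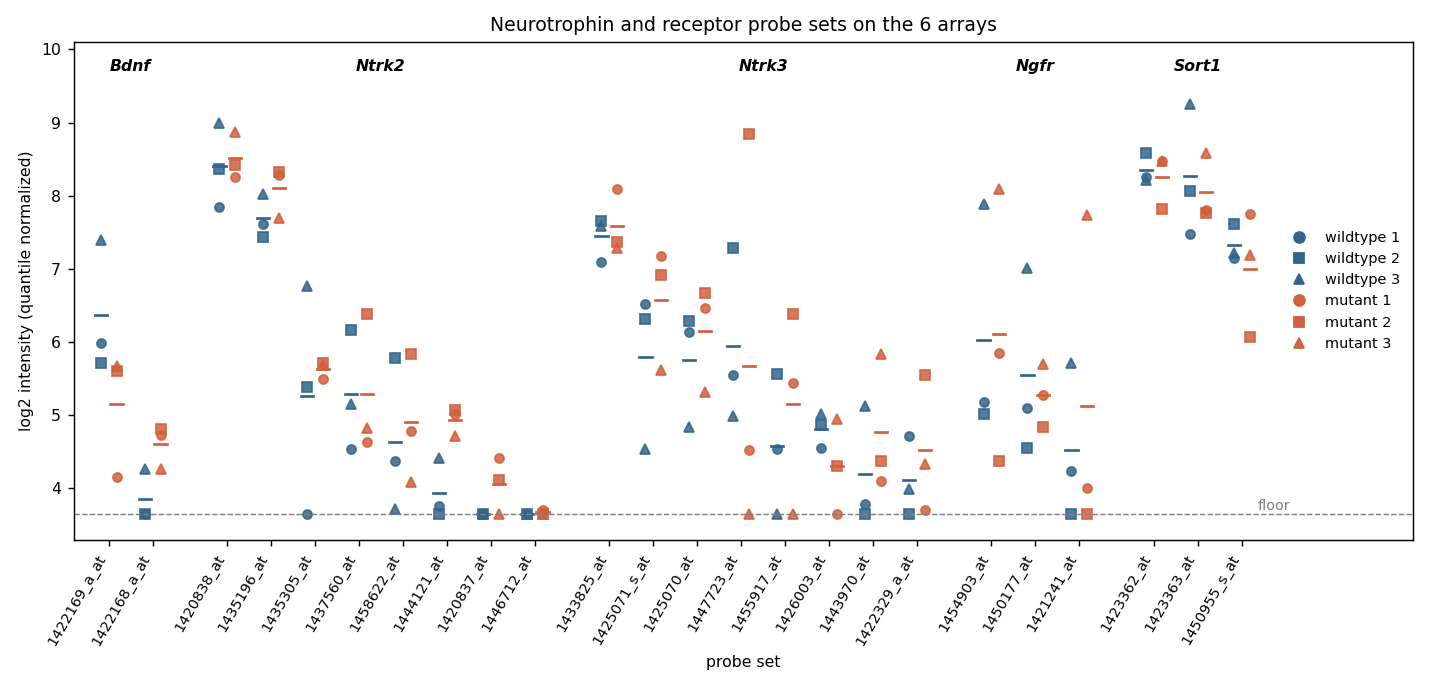
Log2 quantile-normalized intensity (vertical axis) of each of the 24 probe sets (horizontal axis, grouped by gene) on the 3 wildtype arrays (blue) and the 3 mutant arrays (orange). Marker shape gives the array number, short bars are group means and the dashed line is the floor at 3.65. Groups overlap for 21 of the probe sets, and the triangles of the arrays numbered 3 lie highest for Ngfr in both genotypes.

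Bdnf, the ligand of TrkB, had 2 probe sets, and they differed in opposite directions. On probe set 1422169_a_at its level was 5.99, 5.71 and 7.40 on wildtype arrays 1, 2 and 3, and 4.16, 5.61 and 5.67 on mutant arrays 1, 2 and 3. All mutant arrays lay below all wildtype arrays, but the nearest arrays, wildtype 2 and mutant 3, were almost level. The means were 6.37 ± 0.91 and 5.15 ± 0.86 (SD, n = 3 each), a difference of -1.22 (SE 0.863, 95% interval -3.15 to 0.71), or 2.34-fold lower (limma, unadjusted p = 0.187, adjusted p = 1; exact two-sided permutation p = 0.1, the smallest that 3 against 3 can give). It was the largest difference of any member above the dim level, and its interval still includes no change. As deposited, the intensities were 51.89, 55.06 and 151.21 against 14.17, 62.24 and 50.97, which overlap, so the separation appears only once arrays are brought to a common scale. Mutant minus wildtype differences between arrays of the same number were -1.84, -0.10 and -1.74, and with that number as a block the interval was -2.58 to 0.13.

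The other Bdnf probe set, 1422168_a_at, was dim. It stood at the floor on wildtype arrays 1 and 2 and at 4.26 on wildtype array 3, against 4.73, 4.81 and 4.27 in the mutant arrays. Every mutant array was above every wildtype array, mutant array 3 only just above wildtype array 3. The difference was 0.75 (SE 0.381, 95% interval -0.10 to 1.60; limma, unadjusted p = 0.0787, adjusted p = 1; exact p = 0.1), and it is understated because wildtype arrays lay at the floor. The deposited intensities of this probe set overlapped, with 20.71 on wildtype array 3 above 19.63 on mutant array 3. Both probe sets have the same named target, so they are not independent. Which Bdnf transcripts they bind is not in the annotation, and whether the several starts of the gene matter here was not tested. The probe sets therefore give no common direction for Bdnf.

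Ntrk2, the receptor kinase for BDNF, was well detected by probe sets 1420838_at and 1435196_at. Probe set 1420838_at read 7.84, 8.36 and 9.0 in wildtype and 8.25, 8.42 and 8.87 in mutant arrays 1 to 3. Array 3 was highest in both genotypes and the groups overlapped throughout. The means of 8.40 ± 0.58 and 8.52 ± 0.32 (SD, n = 3 each) differed by 0.12 (SE 0.389, 95% interval -0.75 to 0.99; limma, unadjusted p = 0.768, adjusted p = 1), and by -0.16 without wildtype array 1 and -0.06 without mutant array 3. The interval leaves room for a level up to 1.68-fold lower or 1.99-fold higher in the mutant.

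On probe set 1435196_at Ntrk2 read 7.61, 7.43 and 8.03 in wildtype and 8.29, 8.32 and 7.69 in mutant arrays. Mutant arrays 1 and 2 exceeded every wildtype array, and mutant array 3 fell below wildtype array 3. The difference was 0.41 (SE 0.394, 95% interval -0.47 to 1.29; limma, unadjusted p = 0.323, adjusted p = 1; exact p = 0.2). It stayed positive under each of the 15 alternatives that tested it, between 0.28 and 0.62 when 1 array was left out.

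Probe set 1435305_at ranged from 3.65 on wildtype array 1 to 6.77 on wildtype array 3, while the 3 mutant arrays lay close together at 5.50, 5.71 and 5.69. Its difference was 0.37 (SE 0.945). On 1437560_at both arrays numbered 2 were highest, at 6.16 in wildtype and 6.38 in mutant, and the group means were level at 5.28 ± 0.82 and 5.28 ± 0.95 (SD, n = 3 each). On the dim 1458622_at the same arrays read 5.78 and 5.83, against 3.72 to 4.79 on the other 4. Within pairs of the same number the mutant array was higher on 1458622_at by 0.41, 0.05 and 0.36, and the difference of 0.27 had an SE of 0.775, or 0.407 in the blocked fit (limma, unadjusted p = 0.734 and 0.526, adjusted p = 1).

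One dim Ntrk2 probe set, 1444121_at, had groups that did not overlap. It read 3.76, 3.65 and 4.41 in wildtype, array 2 at the floor, and 5.01, 5.07 and 4.71 in mutant arrays. The difference was 0.99 (SE 0.466, 95% interval -0.05 to 2.03), or 1.98-fold higher (limma, unadjusted p = 0.0608, adjusted p = 1; exact p = 0.1). The deposited intensities were 10.97, 13.53 and 23.25 against 25.09, 41.73 and 26.61 and did not overlap either. Blocking on the replicate number gave an interval of 0.11 to 1.87, an unadjusted p of 0.0326 and an adjusted p of 1 (limma). The 4 Ntrk2 probe sets above the dim level overlapped between genotypes, and which Ntrk2 transcripts each probe set binds is not in the annotation. The last 2, 1420837_at and 1446712_at, lay at the floor on every wildtype array and above it on 2 and 1 mutant arrays. Probe set 1420837_at has the same named target as 1420838_at, so these are not independent.

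Ntrk3, the receptor kinase for neurotrophin 3, had its highest mean on probe set 1433825_at, with 7.10, 7.66 and 7.58 in wildtype and 8.09, 7.37 and 7.28 in mutant arrays. Mutant array 1 was the highest and wildtype array 1 the lowest. The means of 7.45 ± 0.30 and 7.58 ± 0.44 (SD, n = 3 each) differed by 0.13 (SE 0.445, 95% interval -0.86 to 1.13; limma, unadjusted p = 0.772, adjusted p = 1), and by -0.04 without wildtype array 1 and -0.12 without mutant array 1.

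Probe sets 1425071_s_at and 1425070_at of Ntrk3 were higher in the mutant within each pair of arrays of the same number. On 1425071_s_at the values were 6.52, 6.31 and 4.54 in wildtype and 7.17, 6.92 and 5.62 in mutant arrays, with differences by number of 0.65, 0.61 and 1.07. On 1425070_at they were 6.14, 6.29 and 4.84 against 6.47, 6.67 and 5.31, with differences of 0.33, 0.38 and 0.47. Both arrays numbered 3 were the lowest on each probe set, as on 19.9% of all probe sets above the dim level, and the groups overlapped. The overall differences were 0.78 (SE 0.826; limma, unadjusted p = 0.37, adjusted p = 1) and 0.39 (SE 0.805; limma, unadjusted p = 0.635, adjusted p = 1), and the second became -0.06 without wildtype array 3. In the blocked fit the intervals were -0.36 to 1.91 and -0.76 to 1.55 (limma, unadjusted p = 0.15 and 0.447). The annotation names the same target for these probe sets, so they are not independent. By number, 1433825_at differed by 0.99, -0.29 and -0.30, the dim 1426003_at by -0.89, -0.56 and -0.08, and the dim 1443970_at by 0.31, 0.72 and 0.71. The rest of the Ntrk3 probe sets did not keep 1 sign in every pair. The share of all probe sets with the same direction in every pair was not counted.

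Probe set 1447723_at of Ntrk3 varied most of all 24, over 5.20 on the log2 scale. It read 5.55, 7.28 and 4.99 in wildtype and 4.53, 8.85 and 3.65 in mutant arrays, the last at the floor. Both arrays numbered 2 stood above the other 4, as they did for Ntrk2 on 1437560_at and 1458622_at and for Ntrk3 on the dim 1455917_at. The share of all probe sets with this pattern was not counted, so it is not given as a trait of these genes. The difference of -0.27 (SE 1.33, 95% interval -3.25 to 2.72) changed sign without wildtype array 2, to 0.40. The other 4 Ntrk3 probe sets, 1455917_at among them, were dim, with differences from -0.51 to 0.58 and overlapping groups.

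Ngfr, which encodes p75, was highest on the arrays numbered 3 in both genotypes. On probe set 1454903_at it read 5.18, 5.01 and 7.88 in wildtype and 5.85, 4.38 and 8.09 in mutant arrays 1, 2 and 3. On 1450177_at the values were 5.10, 4.55 and 7.01 against 5.28, 4.84 and 5.70. On the dim 1421241_at they were 4.23, 3.65 and 5.71 against 4.0, 3.65 and 7.74. Both arrays numbered 3 exceeded the other 4 on all 3 probe sets, by 2.88, 1.41 and 2.84 on the log2 scale in the mean. Probe sets 1450177_at and 1421241_at have the same named target, so they are not independent.

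Between genotypes the Ngfr probe sets differed by 0.09 (SE 1.14, 95% interval -2.45 to 2.63), -0.28 (SE 0.898) and 0.60 (SE 1.11), with limma unadjusted p = 0.94, 0.762 and 0.601 and adjusted p = 1. The interval on 1454903_at leaves room for a level 5.46-fold lower or 6.19-fold higher. Differences between arrays of the same number were 0.68, -0.63 and 0.21 on that probe set. With the replicate number as a block its interval was -1.14 to 1.32 (SE 0.524), or 2.21-fold lower to 2.49-fold higher. The blocked intervals were -1.59 to 1.03 on 1450177_at and -0.71 to 1.91 on 1421241_at, and blocked limma gave unadjusted p = 0.873, 0.631 and 0.317 in the same order, adjusted p = 1. Without both arrays numbered 3 the differences were 0.03, 0.23 and -0.11.

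Arrays numbered 3 stood apart for many genes. Of the 27022 probe sets above the dim level, 19.4% had both arrays numbered 3 above the other 4, and 4.7% did so with means at least 2 apart on the log2 scale. Of the markers of ensheathing glia and Schwann cells, the glia known for p75, 6 of 8 listed genes had a probe set. For 2 of the 6 both arrays numbered 3 were the highest, for 1 the lowest and for 3 neither. The neuropeptide gene Npy read 6.24, 6.40 and 6.56 in wildtype and 6.55, 6.16 and 7.95 in mutant arrays. The transcription factor Foxd3, which was dim, was at the floor on the other 4 arrays and at 5.44 and 4.44 on wildtype and mutant array 3. S100b went the other way, with 7.54 and 7.59 on the arrays numbered 3 and 7.90 to 8.15 on the others. The log2 of the summed intensity of the 6 was 11.48, 11.20 and 10.92 in wildtype and 11.32, 11.31 and 11.39 in mutant arrays.

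Of the 6 macrophage and leukocyte markers, 2 were highest on both arrays numbered 3, the complement gene C1qb (11.10 and 11.37, against 8.96 to 10.31) and Tyrobp (9.44 and 9.75, against 7.92 to 9.26). Cd68 was lowest there, at 3.65 and 4.82 against 4.97 to 6.94, and 3 were neither. Their log2 summed intensity was 11.78 and 12.09 on the arrays numbered 3, against 10.20 to 11.59 on the others. Of 2 blood genes with a probe set, the dim Hba-a1 read 6.79 and 6.08 on the arrays numbered 3, against 3.65 to 4.15, while Alas2 read 5.42 and 6.07 there, against 4.83 to 5.92. The part of these cells, or of the way the tissue was taken, in the Ngfr values was not tested.

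**Figure D2:**
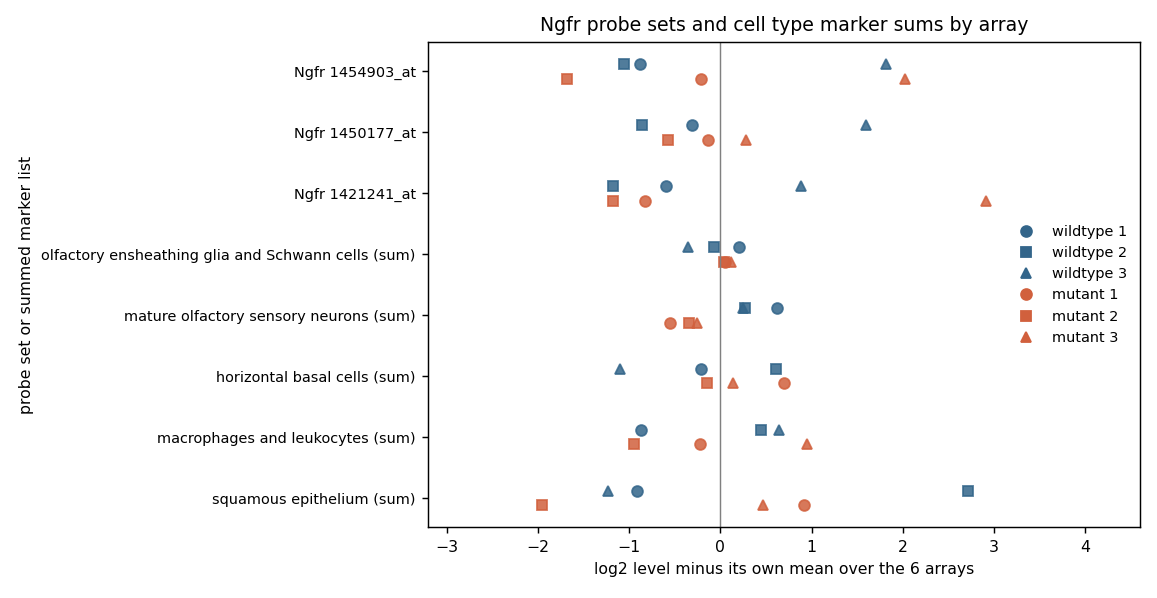
Log2 level minus its own mean over the 6 arrays (horizontal axis) for the 3 Ngfr probe sets and for the summed intensities of 5 cell type marker lists (vertical axis), with wildtype arrays in blue, mutant arrays in orange and marker shape for the array number. The arrays numbered 3 lie farthest right for each Ngfr probe set, while the ensheathing glia and Schwann cell sum spans 10.92 to 11.48 in log2 with wildtype array 3 lowest.

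Sort1 encodes the sorting receptor that partners p75 in binding pro-neurotrophins. Its probe set 1423362_at had the smallest range over the 6 arrays of the 14 above the dim level, 0.76, and read 8.26, 8.58 and 8.21 in wildtype and 8.47, 7.82 and 8.47 in mutant arrays. The groups overlapped, with mutant array 2 the lowest. The means of 8.35 ± 0.20 and 8.26 ± 0.38 (SD, n = 3 each) differed by -0.09 (SE 0.352, 95% interval -0.88 to 0.69; limma, unadjusted p = 0.795, adjusted p = 1). This was the narrowest interval of the probe sets above the dim level, and it runs from 1.84-fold lower to 1.61-fold higher.

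The other Sort1 probe sets also overlapped between genotypes. Probe set 1423363_at read 7.47, 8.06 and 9.26 against 7.81, 7.77 and 8.58, highest on array 3 in both genotypes. Its difference was -0.21 (SE 0.5), and 0.29 without wildtype array 3. Probe set 1450955_s_at read 7.15, 7.61 and 7.22 against 7.75, 6.07 and 7.19. Its difference of -0.32 (SE 0.556) rested on mutant array 2, without which it was 0.14. All 3 Sort1 probe sets had a lower mutant mean, but each changed sign when some single array was left out. They share 1 named target, so they are not independent.

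**Figure D3:**
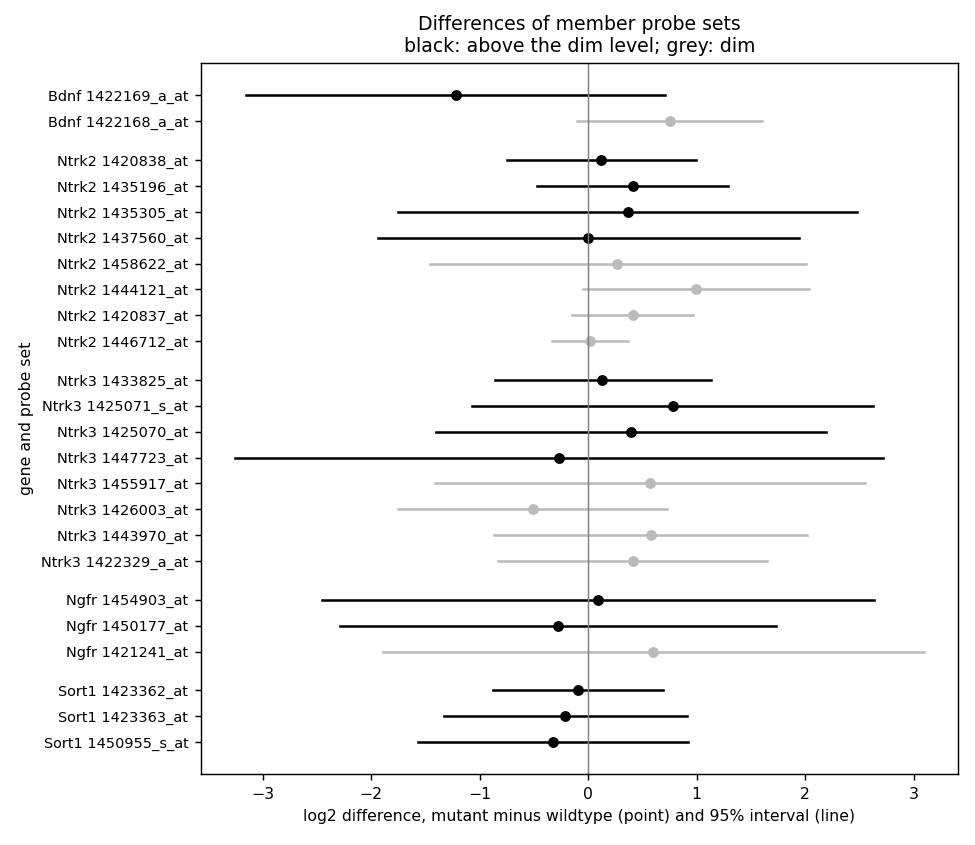
Log2 difference, mutant minus wildtype (point), with its 95% interval (line, from limma, not adjusted for the number of probe sets) for each of the 24 probe sets, listed by gene on the vertical axis. Black marks the 14 probe sets above the dim level and grey the 10 dim ones. Every interval of this fit, which has no replicate block, includes 0, and the widest, for Ntrk3 1447723_at, runs from -3.25 to 2.72.

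Genes around these receptors gave no call either. Of 97 genes listed by role, 83 had a probe set of their own and 82 were tested, taking for each the probe set with the highest mean. limma called 0 of the 82 over all probe sets, with 0 at an unadjusted p under 0.05, beside 0.707% of 17971 genes taken the same way. The 82 were split into 42 higher and 40 lower in the mutant, with a median difference of 0.00 on the log2 scale, against -0.02 over all genes. Groups did not overlap for 2 of the 82, beside 2.98% of genes, namely the lipid kinase subunit Pik3ca (0.30, SE 0.215) and the Trk and p75 scaffold Kidins220 (-0.29, SE 0.279).

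By role, the ligand Ntf5, which also binds TrkB, differed by 0.37 (SE 0.817). Among sortilin relatives 2 of 4 were higher, with Sorcs2 at 0.91 (SE 0.691), Sorcs3 at -0.24 (SE 0.795), Sorl1 at 0.02 (SE 0.24) and Sorcs1 at -0.05 (SE 0.84). Of the partners and processing proteases of p75, 8 of 11 were lower, with a median of -0.11. Those with the smallest p were the Nogo receptor Rtn4r (-0.61, SE 0.422, at the floor on all mutant arrays), Nradd, a relative of p75 (0.69, SE 0.506, above the floor only on mutant array 3), Kidins220 and the sheddase Adam17 (-0.19, SE 0.318). None of these differences passed the test.

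Of the proteases that process pro-neurotrophins and their inhibitors, 6 of 9 were lower, with a median of -0.06. The convertase furin, encoded by Furin, was steady at 12.01, 12.05 and 12.40 in wildtype and 12.07, 12.12 and 12.10 in mutant arrays. The convertases Pcsk6, Pcsk7 and Pcsk5 differed by 1.24 (SE 0.936), -0.68 (SE 0.73) and 0.36 (SE 0.505), and the protease inhibitor Serpini1 by -0.40 (SE 0.576). Pcsk6 read 5.99, 5.57 and 3.65 in wildtype, the last at the floor, and 5.78, 5.76 and 7.40 in mutant arrays. Pcsk7 was dim, with mutant array 3 at the floor. Adaptors and direct effectors of Trk receptors had 10 of 17 higher and a median of 0.08. The exchange factor Sos1 differed by 0.35 (SE 0.283), the adaptors Grb2 and Nck2 by 0.29 (SE 0.263) and 0.20 (SE 0.195), and the phosphatase Ptpn11 by 0.31 (SE 0.338). Phospholipase C gamma, Plcg1, differed by -0.01 (SE 0.216).

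The kinase cascades were split 8 to 8 with a median of -0.01, led by Rps6ka3 at 1.18 (SE 0.806), which was low on wildtype array 3 only (5.61, against 8.94 to 9.28). Pik3ca, Nras and Pik3r1 followed, at 0.30, -0.30 (SE 0.287) and 0.24 (SE 0.258). Of 13 genes known to respond to neurotrophins, 9 were higher, with a median of 0.11. The immediate early factor Egr1 read 10.75, 11.31 and 10.74 in wildtype and 11.47, 11.47 and 11.30 in mutant arrays, a difference of 0.48 (SE 0.218; limma, unadjusted p = 0.0522, adjusted p = 1) with groups that overlapped. The secreted peptide precursor Vgf was at the floor on all wildtype arrays and on mutant array 2, and at 4.59 and 4.35 on mutant arrays 1 and 3. The survival factor Bcl2l1 differed by 0.94 (SE 0.512) and Bex1 by -0.44 (SE 0.674).

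**Figure D4:**
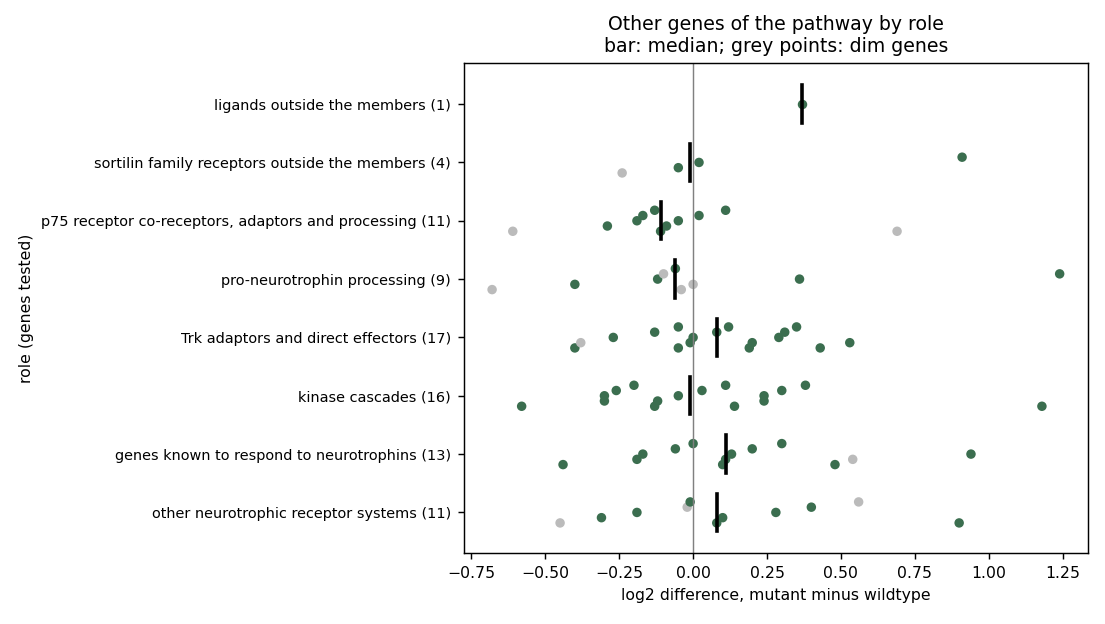
Log2 difference, mutant minus wildtype (horizontal axis), of the 82 tested pathway genes in 8 roles (vertical axis, number tested in brackets), each point 1 gene and each black bar the median of its role, with dim genes in grey. The medians of the 7 roles with more than 1 gene lie between -0.11 and 0.11, and single genes spread to both sides of 0.

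Genes with the most similar profile over the 6 arrays were found by the root mean square difference between profiles, each centred on its own mean, among 12612 genes above the dim level. For Ntrk2 (1420838_at) they were Fkbp5, Pagr1a and Tro, at 0.07, 0.09 and 0.09, where the median gene lay at 0.64. For Ntrk3 (1433825_at) they were Usp3, Mroh2a and Kank2, at 0.06, 0.08 and 0.11 (median 0.57). For Ngfr (1454903_at), whose profile varied most of the 5, they were Ppie, Dmrtb1 and Svs2, at 0.22, 0.23 and 0.24 (median 1.49), and all 3 thus share its high arrays numbered 3. For Bdnf (1422169_a_at) they were Lyrm7, Zfp142 and Pudp, at 0.20, 0.27 and 0.33 (median 1.09), and for Sort1 (1423362_at) Clstn1, Sec61a1 and Rpsa, at 0.04, 0.05 and 0.06 (median 0.51). With 6 arrays this is a description of likeness on these arrays.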

How the data were processed

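Total RNA was column-extracted and amplified into biotin-labelled cDNA, per the labels' protocols. The deposited table gives 1 linear intensity per probe set and array; the authors' probe summary, background correction and scaling are not given in the sources used here. Array medians ran from 38.21 to 61.59 and total intensities from 10064207 to 14439788. At most 0.027% of values were equal and above 0 on any pair of arrays. No detection calls were used. Precision is limited by the number of arrays, 3 per group.

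Intensities were quantile normalized, raised to a floor of 12.56 and log2-transformed. All 44073 probe sets not at the floor on every array (964 were) entered limma 3.58.1 in R 4.3.3 (lmFit, eBayes with an intensity trend, two-sided, Benjamini-Hochberg, threshold 0.05). The code was run on simulated arrays with noise mostly below the real spread, none of it shared between arrays, and large changes in brighter probe sets. That run does not show what the fit can detect at the spread of these data. The p-values set each mean difference against the spread between these samples, with variances that limma estimates using all probe sets tested. Platform annotation gave 34945 probe sets 1 symbol, 932 several and 9160 none. The text names every member, up to 4 genes of smallest p per pathway role and the 3 most similar genes per member, clone names skipped. Furin, Plcg1, Npy, S100b, Foxd3, C1qb, Tyrobp, Cd68, Hba-a1, Alas2, Ret, Gfra1, Gfra2 and Gdnf were named after their values were seen. Members and lists were chosen with earlier results of these data known.

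Replicate numbers come from the titles, which do not say what they share. Deviations from group means correlated across probe sets above the dim level at 0.54, 0.37 and 0.59 for same-numbered arrays, so the numbers may mark pairs. The main fit did not use them, and its SEs, intervals and p-values ignore any pairing. A fit blocked on that number was an alternative, and values from it are named as blocked. Others changed normalization, floor, dim filter, feature, variance model, weights and arrays used. Counts of arrays numbered 3 above or below the other 4 were added after the data were seen.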

Additional observations from a re-analysis of the deposited data

How the results depend on the processing

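Under each of the 16 alternatives limma called 0 probe sets in all, 0 of the members, 0 of the pathway genes and 0 of the Klf7 probe sets. The count at an unadjusted p under 0.05, 288 as reported, lay between 77 (1 probe set per gene, fewer tested) and 801 (replicate block, which changed no call). It was 116 with dim probe sets left out, 205 with the higher floor, 424 without the trend, 628 with array weights and 311 to 537 without 1 array. Of the members, 0 to 2 probe sets were under 0.05 unadjusted, and of the pathway genes 0 to 2. Values as deposited moved the median of all differences by 0.06 on the log2 scale. Of the 24 member probe sets 9 kept their sign in the alternatives that tested them, which were 16 for Bdnf 1422169_a_at, 15 for Ntrk2 1435196_at, and 14 for Bdnf 1422168_a_at and Ntrk2 1444121_at. Sign changes came from values as deposited for Ntrk2 1437560_at (0.05), from array weights for Sort1 1423363_at (0.10) and Ngfr 1450177_at (0.17), and without both arrays numbered 3 for Ngfr 1421241_at (-0.11), Ngfr 1450177_at (0.23), Sort1 1423363_at (0.03), Ntrk2 1437560_at (0.16) and Ntrk3 1447723_at (0.27). Leaving out 1 array in turn gave ranges across 0. For Ntrk2 these were -0.16 to 0.42 (1420838_at), -0.44 to 1.12 (1435305_at), -0.55 to 0.44 (1437560_at) and -0.19 to 0.85 (1458622_at). For Ntrk3 they were -0.12 to 0.28 (1433825_at), -0.06 to 0.81 (1425070_at), -1.85 to 0.75 (1447723_at), -0.10 to 0.82 (1422329_a_at) and -0.04 to 1.33 (1455917_at). For Ngfr they were -0.90 to 1.02 (1454903_at), -0.78 to 0.45 (1450177_at) and -0.70 to 1.34 (1421241_at), and for Sort1 -0.20 to 0.12 (1423362_at), -0.61 to 0.29 (1423363_at) and -0.69 to 0.14 (1450955_s_at). Fewer arrays enter these fits; other causes were not tested. Below the floor, differences cannot be measured.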

Other observations

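Other neurotrophic receptor systems were measured beside the neurotrophins. Of 13 genes listed, 12 had a probe set and 11 were tested, 6 higher and 5 lower in the mutant, with a median log2 difference of 0.08 and 0 called by limma (0 at an unadjusted p under 0.05). Ret, the signalling receptor for the GDNF family, read 8.56, 8.52 and 8.82 in wildtype and 8.88, 9.39 and 8.48 in mutant arrays, a difference of 0.28 (SE 0.331). The GDNF family co-receptor Gfra2 read 10.55, 10.38 and 11.72 against 10.60, 10.84 and 11.51, highest on array 3 in both genotypes, while Gfra1 differed by -0.31 (SE 0.699). Gdnf was at the floor on all 6 arrays. Of the other ligands of that family, Nrtn differed by 0.90 (SE 0.785) and Artn by -0.45 (SE 0.359), above the floor on wildtype array 2 only. The growth factor Igf1 differed by 0.40 (SE 0.432) and the ciliary neurotrophic factor receptor Cntfr by 0.56 (SE 0.615).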
